A study of Mus musculus with 6 samples.

Results

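The genes described here are the chaperones and heat shock proteins of B16-F3 mouse melanoma cells that lie outside the set of endoplasmic reticulum (ER) chaperones. They were chosen by symbol: HSP90, HSP70, HSP110, HSP60, HSP10 and small HSP genes, J proteins of the DNAJA, DNAJB and DNAJC families, the subunits of the chaperonin CCT, the BAG genes, and the heat shock factors Hsf1 and Hsf2. The ER genes Hspa5, Hsp90b1, Dnajb9, Dnajb11, Dnajc3 and Dnajc10 were left out. This took 87 of the 22740 rows of the count table, and 71 of the 87 had enough counts to be tested. The symbol rule itself used no measured value, but it was set with earlier results of these data known. The name "cytosolic" does not hold for all of them. Hspa9, Hspd1, Hspe1 and Dnaja3 act in the mitochondrial matrix and are treated as a class of their own. Dnajc11, Dnajc15, Dnajc19 and Dnajc30 are also mitochondrial, and Hspa13, Dnajb12, Dnajb14, Dnajc1 and Dnajc18 belong to the ER.

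B16-F3 is an established melanoma line. Its cultures, for which the labels name no added gene or drug, were sorted on how intracellular melanin scatters light into a high-pigmented population (HPC) and a low-pigmented population (LPC), with 3 libraries of each. The libraries count reads at the 3' ends of polyadenylated transcripts, so a count stands for a transcript end and does not grow with gene length. All levels below are CPM, read counts scaled to a common library size with a correction for library composition, and every log2 fold change sets HPC over LPC. Since RNA was taken from whole sorted populations, fewer cells with a transcript and less of it per cell cannot be told apart.

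Chaperones bind unfolded protein chains and keep them from clumping until they fold. HSP70 grips short greasy stretches of a chain in a cycle driven by ATP, J proteins bring the chain and start ATP hydrolysis, and HSP110 and BAG proteins release ADP so that the cycle can run again. HSP90 finishes the folding of kinases and receptors, many of them oncogene products in melanoma, CCT closes around actin and tubulin, and small HSPs hold aggregation-prone proteins. Under heat or toxic stress HSF1 binds heat shock elements, repeats of the letters GAA in alternating orientation, and raises transcription of the inducible members.

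Total counts were 18131623 to 22186743 in HPC libraries and 14695822 to 18810435 in LPC libraries, and the chaperone rows took 1.21%, 1.31% and 1.12% of them in HPC, against 1.34%, 1.42% and 1.21% in LPC. The melanocyte lineage markers Mitf, Sox10, Pmel, Dct, Tyrp1 and Mlana summed to 32533 to 35952 CPM in HPC and to 31930 to 34398 CPM in LPC, while the keratinocyte markers Krt5, Krt14, Krt15 and Dsg3 and the leukocyte markers Ptprc, Cd3e and Itgam had no count in any library. The 5 fibroblast genes summed to 19.2 to 28.1 CPM in HPC and 17.5 to 34.2 CPM in LPC, the 7 immune genes to 8.16 to 15.7 CPM in HPC and 3.91 to 9.04 CPM in LPC, and the 4 endothelial genes stayed at or below 0.356 CPM, with Cdh5 and Kdr at 0. Of the 7 immune genes, 2 were tested, both with positive log2 fold changes. Cd68 had 12.9, 6.95 and 10.2 CPM in HPC, against 2.63, 4.23 and 7.097 CPM in LPC. It was 2.14-fold higher in HPC, with overlapping groups. Its edgeR adjusted p was 0.42 without pairs and 0.129 with them, and its DESeq2 adjusted p 0.113 and 0.0184. Lyz2 overlapped, at a log2 fold change of 0.23. Csf1r, too low to test, was lower in HPC. The 12 immediate early genes, which mark handling stress, summed to 306 to 362 CPM in HPC and 292 to 398 CPM in LPC, and of 11 tested 5 had positive and 6 negative log2 fold changes. The sum hides Egr1, which had 3.82, 6.31 and 4.37 CPM in HPC, against 1.08, 0.687 and 1.004 CPM in LPC (5.26-fold; edgeR adjusted p = 0.0715 without pairs and 0.0181 with them, DESeq2 adjusted p = 2.13e-06). It also hides Btg2, at 17.2, 4.46 and 6.10 CPM in HPC, against 3.51, 2.80 and 2.54 CPM in LPC (edgeR adjusted p = 0.334 without pairs and 0.0577 with them, DESeq2 adjusted p = 0.0299). Neither gene's groups overlapped. In the other direction, 1 of the 11 tested genes was lower in HPC at an unadjusted edgeR p under 0.05. All HPC values lay below all LPC values in 1 gene. The most negative log2 fold change of the 11 was -0.34. No gene of this list was called lower by edgeR, with or without pairs, or by DESeq2 without pairs. The mitochondrially encoded genes took 2.07% to 3.21% of counts in HPC and 2.36% to 2.56% in LPC. The part of these differences in the results below was not tested.

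No chaperone gene passed the test between HPC and LPC after adjustment over all 11921 tested genes (edgeR quasi-likelihood test, Benjamini-Hochberg adjusted p under 0.05), in a comparison that called 0.0419% of all genes, each of them lower in HPC. limma-voom called none of the members either, and at an unadjusted p under 0.05 it had 3 members higher and 1 lower, beside 5.44% and 4.24% of all genes. In edgeR, at an unadjusted p under 0.05, Hspa4l, Dnajc18 and Bag4 were higher in HPC and Dnaja4 was lower, that is 3 and 1 of 71 members, against 5.06% of all genes higher and 4.31% lower. For the higher genes the shares are close; the single lower member is too few to compare. When equally numbered libraries were compared within pairs, by adding the replicate number to the edgeR model, the comparison called 2.52% of all genes (1.43% higher and 1.1% lower in HPC), and of the members it called Hspa4l, which rose. With pairs, 5 members were higher and 4 lower at an unadjusted p under 0.05, beside 10.1% and 8.66% of all genes. DESeq2, another count model, called 1.86% of its genes without pairs, among them Hspa4l, higher in HPC as were 1.01% of its genes, and Dnaja4, lower in HPC as were 0.849%. With pairs it called 3.95% (2.49% higher and 1.46% lower), and of the members Hspa4l alone.

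The differences among the members were small. Their median log2 fold change was -0.0023, beside -0.0091 over all tested genes, and 34 of the 71 were above 0, beside 48.2% of all genes. The median size of the log2 fold change, whatever its sign, was 0.09 for members and 0.14 for all genes. For 65 of the 71 members (91.5%) the whole 95% interval lay within a 2-fold difference in either direction, which held for 82.6% of all genes. In neither comparison were members and all genes matched for level, and genes with few reads tend to have larger fold changes and wider intervals. The 3 HPC values lay above all 3 LPC values in Bag4, Dnajc18 and Hspa4l and below them in Dnaja4, Dnajc19 and Hsp90ab1, that is 3 and 3 of 71 members, against 7.16% of all genes above and 7.18% below, 14.3% together. The 16 members too low to test were Cct6b, Cct8l1, Dnajb3, Dnajb7, Dnajb8, Dnajb13, Dnajc5b, Dnajc5g, Hspa1a, Hspa1l, Hspa12a, Hspb3, Hspb7, Hspb8, Hspb9 and the second ID of Hspa14. Many of these are known from testis, muscle or nerve, and the highest value among them was 0.813 CPM, for Cct6b in HPC library 3.

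**Figure D1:**
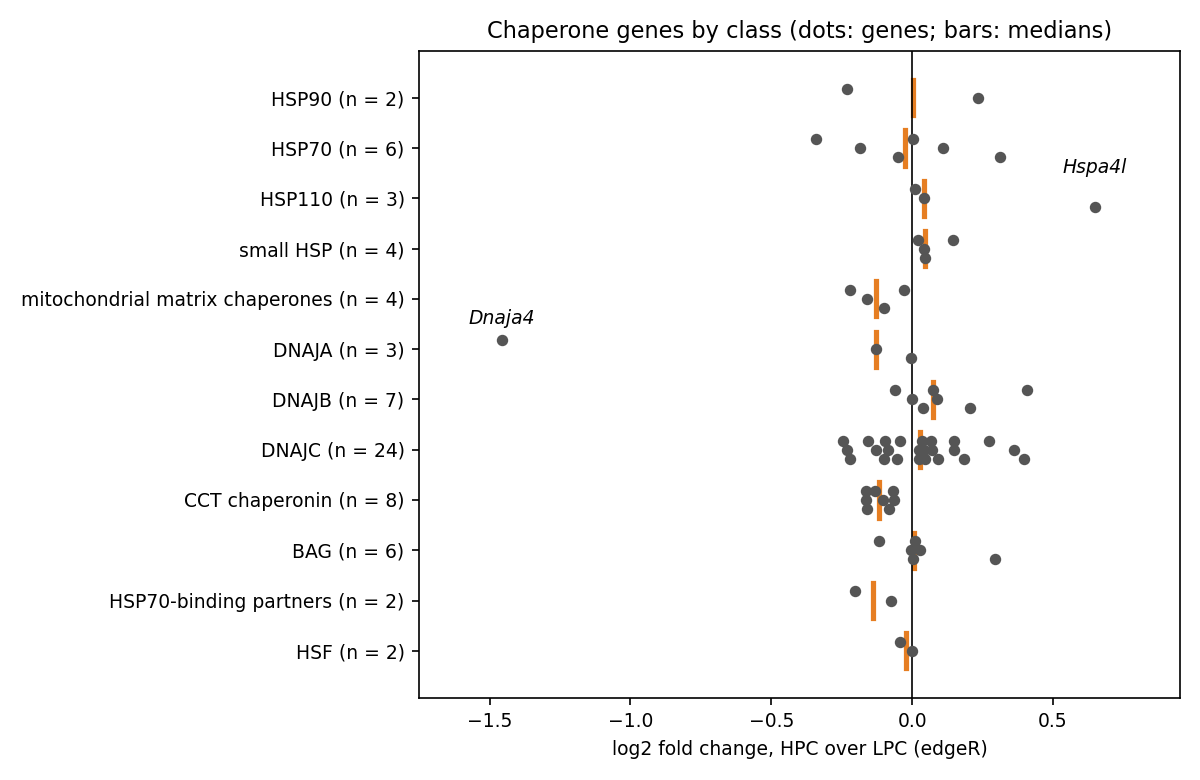
Log2 fold change of each tested member (dots, HPC over LPC, edgeR without pairs), in rows by class; the orange bar is the class median and the small vertical offsets of dots carry no value. Apart from Dnaja4 at -1.46 and Hspa4l at 0.65, the members lie between -0.34 and 0.41.

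Hspa4l encodes a member of the HSP110 family, a release factor for HSP70 that is best known from testis, and lies on chr3:40744495-40796103 (GRCm38, plus strand), where no other annotated gene overlaps its 3' end. It stood at 30.5, 33.4 and 39.6 CPM in HPC libraries 1, 2 and 3, against 18.4, 20.97 and 26.6 CPM in LPC libraries 1, 2 and 3. Every HPC library was above every LPC library, and within pairs HPC was higher by 0.71, 0.66 and 0.56 on the log2 scale. The means were 34.5 ± 4.65 CPM for HPC and 22.01 ± 4.21 CPM for LPC (SD, n = 3), a 1.57-fold difference with a log2 fold change of 0.65 (SE 0.18) and an edgeR adjusted p of 0.277. With pairs the log2 fold change was 0.66 (SE 0.10) and the edgeR adjusted p 0.028; DESeq2 gave adjusted p-values of 0.0448 without pairs and 0.00273 with them. Over all alternative settings the adjusted p ran between 8.69e-07 and 0.874. In the paired edgeR fit the call was lost without pair 2 (adjusted p = 0.288) and without pair 3 (adjusted p = 0.0736), and was made without pair 1 (adjusted p = 8.69e-07), a fit with 1 residual degree of freedom.

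Neither of the other HSP110 genes passed a test. Hspa4, the main cytosolic HSP110 by level here, had 613, 616 and 479 CPM in HPC and 637, 573 and 488 CPM in LPC. Hsph1, the heat-inducible member, had 101, 84.5 and 66.3 CPM in HPC and 93.4, 74.4 and 76.7 CPM in LPC. The groups overlapped in both genes, with log2 fold changes of 0.01 (95% interval -0.33 to 0.35) for Hspa4 and 0.04 (-0.35 to 0.43) for Hsph1. Whether Hspa4l differs from them in its response was not tested.

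**Figure D2:**
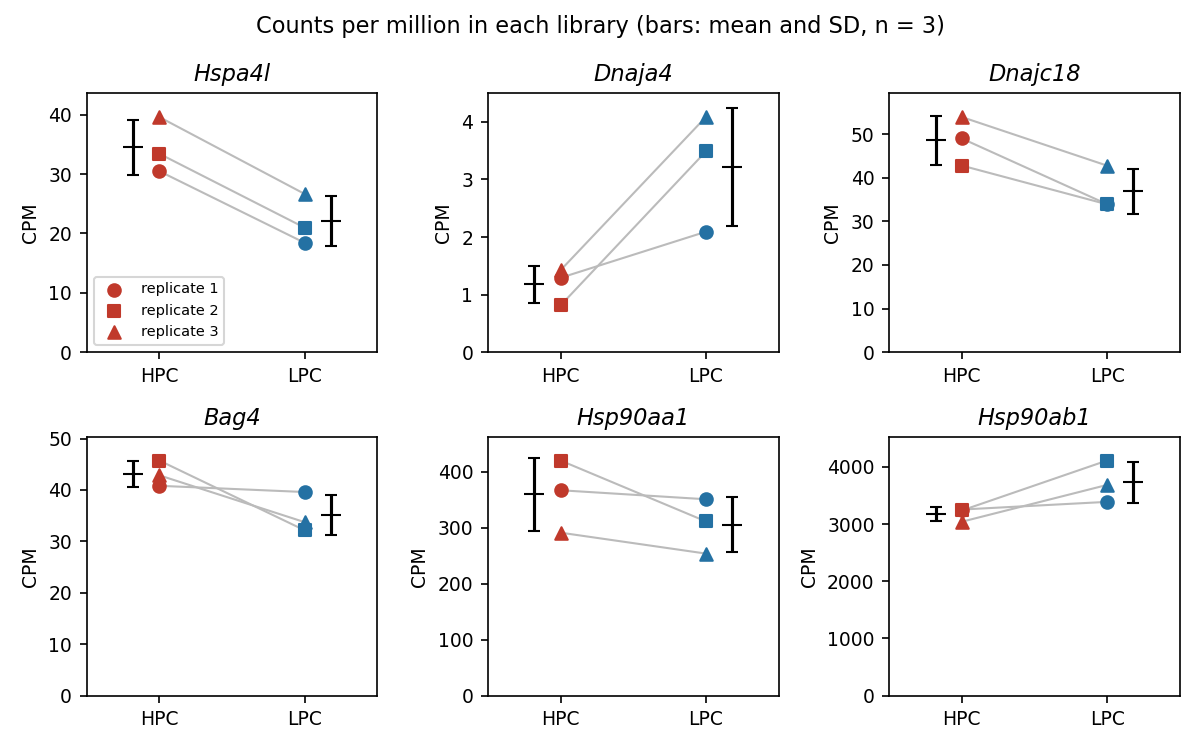
CPM of 6 members in each library, HPC left and LPC right; marker shapes give the replicate number, grey lines join equally numbered libraries, and the bars are mean and SD of 3 libraries. Hspa4l, Dnajc18 and Bag4 have all HPC points above all LPC points, Dnaja4 and Hsp90ab1 have them below, and Hsp90aa1 overlaps.

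Dnaja4 encodes a J protein of the DNAJA family, partners of HSP70 that carry a zinc-binding region, and had the largest negative fold change of the members. It is a rare transcript, at 1.29, 0.812 and 1.42 CPM in HPC, against 2.09, 3.49 and 4.08 CPM in LPC. These levels rest on 23, 18 and 28 reads in HPC and 31, 66 and 61 reads in LPC. The groups did not overlap, and the HPC level was lower by a factor of 2.75, with a log2 fold change of -1.46 (SE 0.37, edgeR adjusted p = 0.245). DESeq2 called it without pairs (adjusted p = 0.0433) and not with them (0.0523), and edgeR with pairs gave an adjusted p of 0.0656. Over all alternatives the adjusted p ran between 1.56e-06 and 0.805, the lowest in the paired fit without pair 1. Its last 500 bases on chr9:54698873-54716315 (plus strand) overlap Wdr61 on the opposite strand, and since the use of strand in counting is not given, reads of the 2 genes cannot be told apart.

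Dnaja4 also carries the letters of paired heat shock half-sites. In the RefSeq promoter table (GRCm38.p6), GAANNTTC occurs at 2 places before a start of this gene, at -90 and -52 bases. Both windows of 30 bases are shown, plus strand, with the matched letters in capitals, because Dnaja4 is the member with the largest fold change. Both lie within the gene interval given above, which begins at an earlier annotated start, and the second overlaps an annotated exon of Dnaja4.
Dnaja4, chr9:54699458-54699487: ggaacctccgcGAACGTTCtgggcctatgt
Dnaja4, chr9:54699496-54699525: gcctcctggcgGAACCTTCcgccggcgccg
A match says only that these letters are present. The windows searched for Hspa4l held none of the motifs.

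The remaining J proteins with the DNAJA zinc-binding region had overlapping levels in both populations. Dnaja2 had 193, 203 and 178 CPM in HPC and 203, 212 and 212 CPM in LPC. Dnaja1, which shares its last 300 bases at 100% identity with Gm15542 and overlaps Smu1 on the opposite strand so that its counts are uncertain, had 46.8, 40.3 and 36.8 CPM in HPC and 41.6, 38.9 and 43.8 CPM in LPC. Log2 fold changes were -0.13 (95% interval -0.36 to 0.11) for Dnaja2 and -0.01 (-0.30 to 0.29) for Dnaja1, with overlapping groups.

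None of the 7 tested DNAJB genes was called by edgeR or DESeq2, 0 had an unadjusted edgeR p under 0.05, and their median log2 fold change was 0.07. Dnajb1, the main heat-inducible partner of HSP70, had 49.3, 41.9 and 49.8 CPM in HPC and 45.2, 46.6 and 55.3 CPM in LPC (log2 fold change -0.06, 95% interval -0.36 to 0.23). Dnajb6, which holds back amyloid formation, averaged 17.1 ± 1.63 CPM in HPC and 16.6 ± 1.97 CPM in LPC. Its 3' end shares 113 bases with Gm13414 at 97.3% identity, so its counts are uncertain. The largest difference of the class was in Dnajb5 (6.96, 4.87 and 8.69 CPM in HPC, 5.19, 4.12 and 6.16 CPM in LPC; log2 fold change 0.41, SE 0.28, edgeR adjusted p = 0.72). Groups overlapped for these genes. Dnajb12, an ER membrane protein and the most abundant DNAJB here, averaged 54.5 ± 2.19 CPM in HPC and 54.6 ± 4.32 CPM in LPC.

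DNAJC genes are J proteins joined to varied other domains, and 24 of the 26 rows were tested, with a median log2 fold change of 0.03, none called by edgeR or DESeq2 and 1, Dnajc18, with an unadjusted edgeR p under 0.05. Dnajc18, a J protein of the ER membrane, had 49.0, 42.8 and 53.9 CPM in HPC, against 33.9, 33.9 and 42.8 CPM in LPC. All HPC libraries were at or above the highest LPC library, by a narrow margin at HPC library 2, and the level was 1.32-fold higher in HPC, at a log2 fold change of 0.40 (SE 0.14, edgeR adjusted p = 0.464). With pairs the edgeR adjusted p was 0.0856, and over all alternatives it ran between 0.00631 and 1.00. Dnajc9, which chaperones histones, had 72.3, 83.0 and 67.0 CPM in HPC and 72.9, 60.0 and 40.0 CPM in LPC, a log2 fold change of 0.36 (SE 0.21, edgeR adjusted p = 0.671), with the low values in LPC libraries 2 and 3.

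The other DNAJC genes named here had lower or negative fold changes. Dnajc7, which binds both HSP70 and HSP90 and passes clients between them, had 173, 171 and 145 CPM in HPC and 209, 199 and 167 CPM in LPC (log2 fold change -0.23, SE 0.13, edgeR adjusted p = 0.654). HPC was lower in each of the 3 pairs, although the groups overlapped. Its 3' end overlaps Cnp on the opposite strand. Dnajc13, an endosomal J protein and the most abundant DNAJC, averaged 252 ± 9.87 CPM in HPC and 245 ± 34.7 CPM in LPC. Dnajc19, a part of the mitochondrial import motor, had 13.5, 13.2 and 9.61 CPM in HPC and 14.4, 13.8 and 14.7 CPM in LPC. Its groups did not overlap, but the log2 fold change of -0.24 had an SE of 0.18 (edgeR adjusted p = 0.744), its 3' end is shared with Dnajc19-ps, and it overlaps Fxr1 on the opposite strand. Dnajc8, a splicing-associated J protein with a shared 3' end, averaged 62.8 ± 6.25 CPM in HPC and 73.3 ± 7.99 CPM in LPC (log2 fold change -0.22, edgeR adjusted p = 0.671).

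The cytosolic HSP90 genes had log2 fold changes of opposite sign. Hsp90ab1, the constitutive form and the most abundant member, had 3255, 3238 and 3042 CPM in HPC, against 3389, 4112 and 3685 CPM in LPC. Every HPC library was below every LPC library, yet library 1 of each group differed little, and the log2 fold change was -0.23 (SE 0.12, edgeR adjusted p = 0.623). Hsp90aa1, the stress-inducible form, had 367, 421 and 291 CPM in HPC and 351, 312 and 254 CPM in LPC. It was higher in HPC in each pair, with overlapping groups and a log2 fold change of 0.24 (SE 0.17, edgeR adjusted p = 0.746). The Hsp90aa1 level was 11.3%, 12.99% and 9.58% of the Hsp90ab1 level in HPC, against 10.4%, 7.58% and 6.89% in LPC. This share of 3'-end counts was higher in HPC in all 3 pairs, the groups overlapped, and the difference was not tested. Gm12346 matches the last 300 bases of Hsp90aa1 at 99.7% identity, so part of its reads may have been lost or shared in counting.

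Hspa8, the constitutive cytosolic form, was the most abundant of the HSP70 genes outside mitochondria and the ER chaperones left out. It had 318, 275 and 327 CPM in HPC and 248, 330 and 469 CPM in LPC. The LPC libraries differed more among themselves than the groups did, and the log2 fold change of -0.19 (SE 0.21, edgeR adjusted p = 0.852) turned positive, at 0.09, without LPC library 3. Among annotated genes, 7 share its 3' end, the closest being Gm15459. Hspa2, a form best known from testis, had 20.3, 17.0 and 28.3 CPM in HPC and 9.45, 16.3 and 27.1 CPM in LPC (log2 fold change 0.31, SE 0.36). Hspa12b, a divergent HSP70 relative best known from endothelium, averaged 9.16 ± 1.04 CPM in HPC and 11.6 ± 3.39 CPM in LPC (log2 fold change -0.34, SE 0.25). For both, groups overlapped, with edgeR adjusted p-values of 0.85 for Hspa2 and 0.741 for Hspa12b.

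The inducible HSP70 genes, the classical readout of a heat shock response, were near the limit of counting in both populations. Hspa1b had 3.48, 1.44 and 2.80 CPM in HPC and 1.82, 2.22 and 3.08 CPM in LPC (log2 fold change 0.11, 95% interval -0.77 to 0.99). Hspa1a had no count in the 3 HPC libraries, and 0, 2 and 0 counts in LPC libraries 1, 2 and 3; a count of 0 allows up to 3 reads in a library, counting error only. These 2 genes lie side by side on chromosome 17 and are near copies. Their last 300 bases were not shared by the criterion used, at least 95% identity over 100 bases. Shorter matches and sequence further upstream were not searched, so reads of the 2 genes may still have been lost or shared in counting. The 120 bases before their starts (RefSeq, GRCm38.p6, minus strand) are shown because the 2 windows are the same at 119 of 120 positions while the genes were counted at different levels. Capitals mark GAANNTTC, the paired half-sites of a heat shock element.
Hspa1a, chr17:34972157-34972276: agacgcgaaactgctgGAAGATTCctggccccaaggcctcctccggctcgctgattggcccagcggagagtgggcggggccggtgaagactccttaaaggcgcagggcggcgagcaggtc
Hspa1b, chr17:34959239-34959358: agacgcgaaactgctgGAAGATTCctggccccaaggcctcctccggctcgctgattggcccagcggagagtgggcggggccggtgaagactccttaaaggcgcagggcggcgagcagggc

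Most small HSPs were low as well. Hspb1 (HSP25), the widely expressed stress-inducible member, had 0.674, 0.586 and 0.966 CPM in HPC and 0.27, 0.845 and 0.87 CPM in LPC. Hsp25-ps1 matches 169 bases of its 3' end at 98.2% identity, so part of the Hspb1 reads may have been lost or shared in counting. Hspb8 averaged 0.015 CPM in HPC and 0.0847 CPM in LPC; it was not tested. The highest of the chosen symbols was Hspb2, known from muscle, at 31.9, 26.7 and 27.5 CPM in HPC and 26.6, 25.6 and 31.3 CPM in LPC, with a log2 fold change of 0.05 (95% interval -0.28 to 0.37). Its last 500 bases overlap Cryab on the opposite strand, and with the strand setting not given its reads cannot be told apart from those of Cryab. Cryab itself, the alpha-B crystallin small HSP that the chosen symbols do not cover, was far more abundant, at 310, 203 and 265 CPM in HPC and 218, 204 and 270 CPM in LPC (log2 fold change 0.17, SE 0.18, edgeR adjusted p = 0.836), with overlapping groups. Hspb6 and Hspb11 completed the 4 tested of this class, which was set by symbol alone. The log2 fold changes of the 4 were 0.02 to 0.14. The factors that drive the inducible genes showed no called difference as mRNA. Hsf1 had 69.6, 75.5 and 72.3 CPM in HPC and 83.4, 80.0 and 60.8 CPM in LPC, and Hsf2 averaged 23.6 ± 1.74 CPM in HPC and 23.6 ± 1.84 CPM in LPC. Their 95% intervals were -0.36 to 0.27 and -0.31 to 0.31. The data hold no measure of HSF1 protein or its activity.

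**Figure D3:**
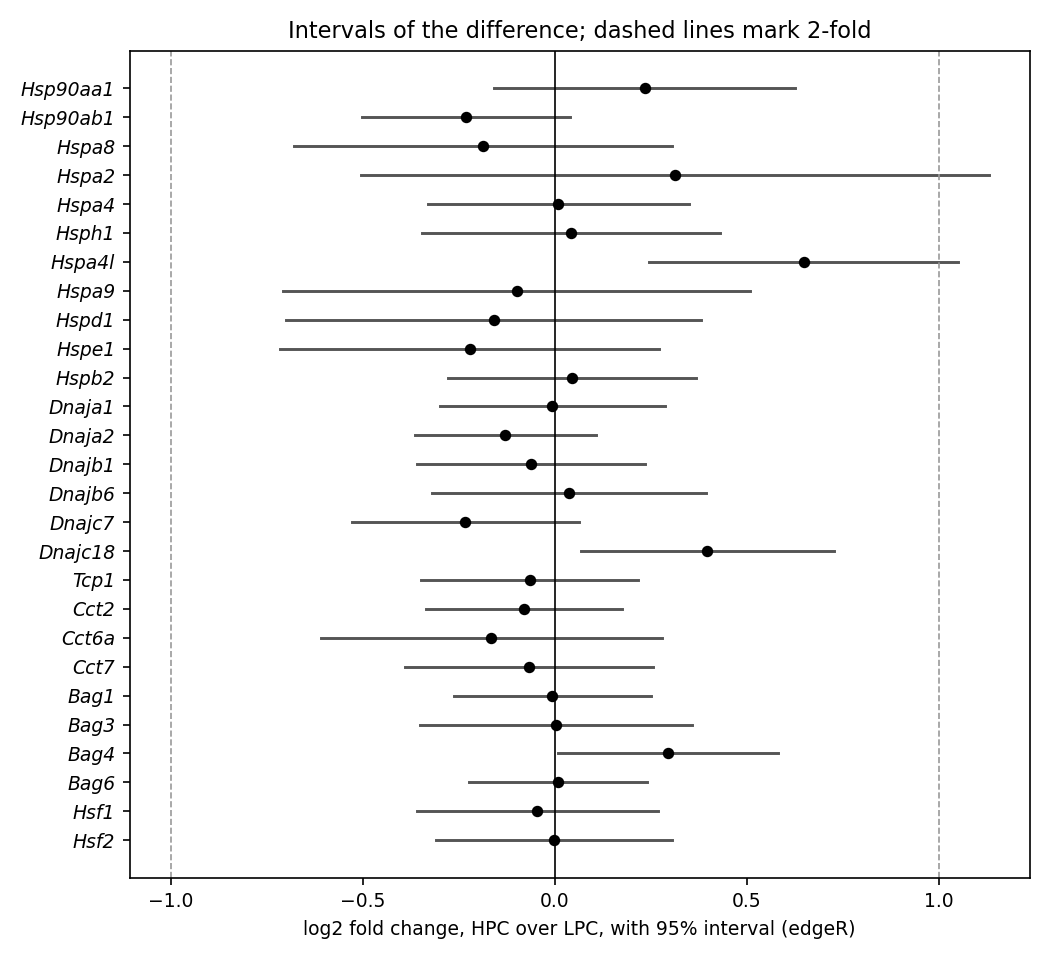
Log2 fold change (HPC over LPC, dots) with its 95% interval (lines) for 27 members; dashed lines mark 2-fold. The intervals of Hspa4l, Dnajc18 and Bag4 lie above 0, those of Hspa4l and Hspa2 reach past 2-fold, and the others shown include 0 and stay within 2-fold. The members shown were picked and do not stand for all. Among those left out, the interval of Dnaja4 (-2.30 to -0.62) lies below 0. Those of Hspb1 (-0.98 to 1.27) and Dnajb5 (-0.23 to 1.04), also left out, include 0 and reach past 2-fold.

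The chaperonin CCT is a ring of 8 different subunits. All 8 tested subunit genes, Tcp1, Cct2 to Cct5, Cct6a, Cct7 and Cct8, had negative log2 fold changes within a narrow band of -0.16 to -0.07 (median -0.12). None was called, and none had an unadjusted p under 0.05, with or without pairs. Their summed level was 3487, 3818 and 2995 CPM in HPC, against 3901, 4029 and 3157 CPM in LPC. HPC was below LPC within each pair, but the groups overlapped, and the libraries numbered 3 were the lowest of both groups. Tcp1, the founding subunit, had 388, 457 and 380 CPM in HPC and 425, 467 and 390 CPM in LPC (log2 fold change -0.07, 95% interval -0.35 to 0.22). The 3' ends of Tcp1 and Cct8 overlap Acat3 and Usp16 on the opposite strand. Cct7, the most abundant, had 804, 885 and 719 CPM in HPC and 858, 947 and 716 CPM in LPC. Cct6a, at the lower end of the band, had 237, 256 and 180 CPM in HPC and 306, 255 and 194 CPM in LPC (log2 fold change -0.16 with an SE of 0.19, edgeR adjusted p = 0.856). The groups overlapped in each of the 8. HPC was lower in all 3 pairs in 6 of the 8 subunit genes, which held for 21.3% of all tested genes, and all 8 were lowest in library 3 of HPC and in library 3 of LPC, which held for 22.1% of all tested genes. Lowest levels in library 3 of both groups also held for 33.8% of tested members and 42.4% of the tested pathway genes outside them. Among the lists of those pathway genes the share ran from 16.7% (ER chaperones) to 60% (mitochondrial quality control). The 8 genes are not independent of each other, and their median ran between -0.23 and -0.02 when single libraries or pairs were left out. The untested relatives Cct6b and Cct8l1 were below 1 CPM.

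Of the 4 mitochondrial matrix chaperones, Hspd1, Hspe1 and Dnaja3 were also lowest in library 3 of both groups. Dnaja3, the J protein of the matrix, had 78.3, 107 and 74.2 CPM in HPC and 103, 99.6 and 62.7 CPM in LPC (log2 fold change -0.03). Hspa9 (mortalin), the HSP70 of the matrix, had 718, 1099 and 723 CPM in HPC and 989, 1148 and 583 CPM in LPC. Hspd1 (HSP60), the matrix chaperonin, had 345, 401 and 245 CPM in HPC and 432, 416 and 259 CPM in LPC. Hspe1 (HSP10), its lid, had 98.2, 88.0 and 57.7 CPM in HPC and 104, 106 and 74.6 CPM in LPC. For Hspa9, Hspd1 and Hspe1 the libraries within a group differed more than the group means, the groups overlapped, and the log2 fold changes were -0.10 (SE 0.27), -0.16 (SE 0.24) and -0.22 (SE 0.22), with edgeR adjusted p-values of 0.956, 0.891 and 0.818. Hspd1 and Hspe1 were lower in HPC in all 3 pairs. Both have near-identical 3' ends elsewhere in the genome, Hspd1 with Hspd1-ps3 at 99.7% identity, and their counts are uncertain.

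Hspd1 and Hspe1 are transcribed in opposite directions from a shared start region on chromosome 1. That region holds a run of alternating heat shock letters, shown here because these genes share the region. Its part in their levels was not tested. It is given on the plus strand, 5' to 3' as Hspe1 is read (RefSeq, GRCm38.p6), with the run in capitals.
Hspe1, chr1:55088050-55088079: cacggtccgTTCTAGAACCTTCCGGAAggc
The run begins 89 bases before the Hspe1 start, and the window shown overlaps an annotated exon of Hspd1.

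**Figure D4:**
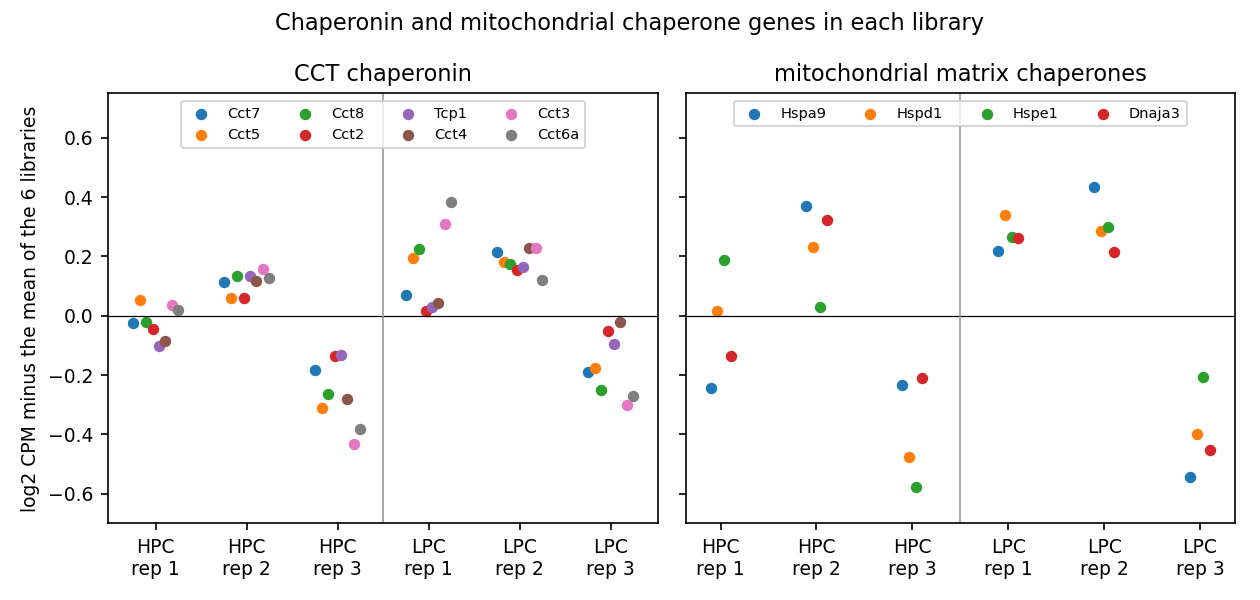
Log2 CPM of each CCT gene (left) and matrix chaperone gene (right) minus its mean over the 6 libraries, with HPC libraries left of LPC libraries; points of a gene share a colour. The CCT genes move together, and all 8 are lowest in library 3 of each group.

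BAG proteins are release factors that link HSP70 to other machines. Bag4, also called silencer of death domains, had 40.8, 45.7 and 42.9 CPM in HPC, against 39.6, 32.2 and 33.7 CPM in LPC. The groups did not overlap, although library 1 of both groups was close, and the log2 fold change was 0.30 (SE 0.13, edgeR adjusted p = 0.525). Its 3' end overlaps Gm17484 on the opposite strand. Bag6, which guards newly made membrane proteins and was the most abundant, averaged 396 ± 18.1 CPM in HPC and 394 ± 15.7 CPM in LPC. Bag3, the stress-inducible partner of small HSPs in autophagy, had 38.7, 34.8 and 44.7 CPM in HPC and 33.5, 38.7 and 45.6 CPM in LPC. Bag1, which joins HSP70 to the proteasome, averaged 86.0 ± 6.47 CPM in HPC and 86.3 ± 6.87 CPM in LPC. The 95% intervals were -0.22 to 0.24 for Bag6, -0.35 to 0.36 for Bag3 and -0.26 to 0.25 for Bag1. Hspbp1, another release factor of HSP70, averaged 36.5 ± 2.33 CPM in HPC and 42.0 ± 7.01 CPM in LPC (log2 fold change -0.20, edgeR adjusted p = 0.748).

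**Figure D5:**
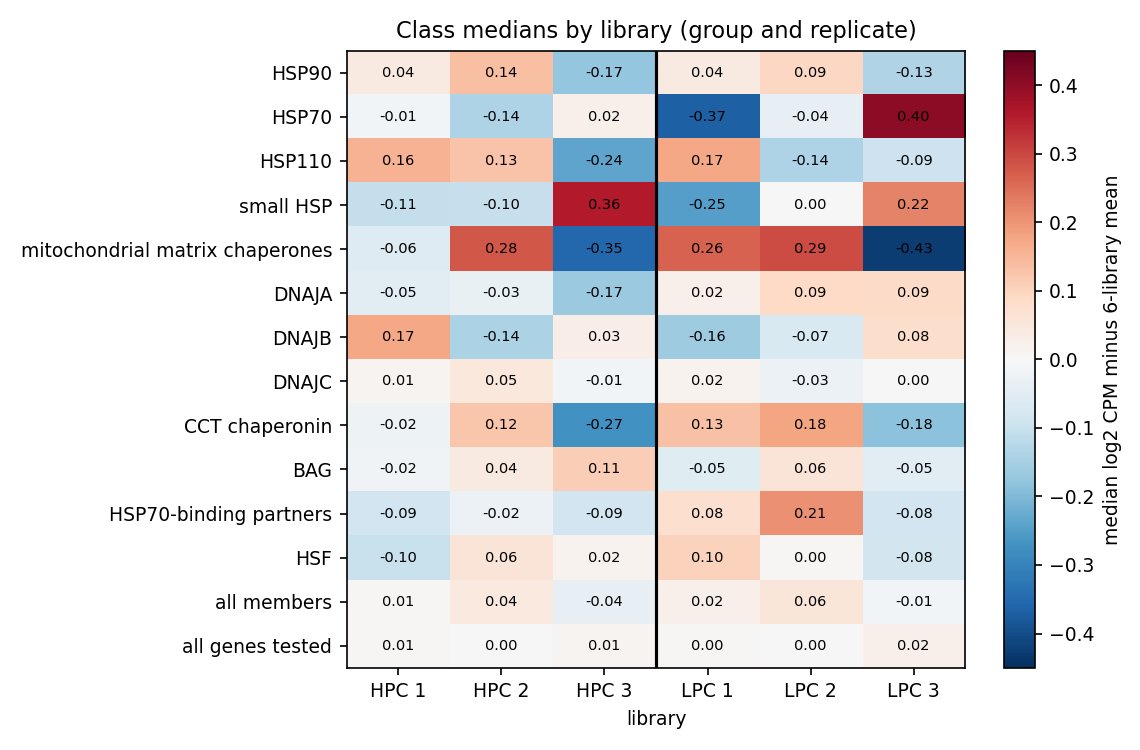
Median over the genes of a class of log2 CPM minus the gene's 6-library mean, for each library, HPC left of the line and LPC right of it; red is higher and blue lower. The columns of library 3 share low values for CCT and matrix chaperones in both groups, at -0.27 and -0.35 in HPC and -0.18 and -0.43 in LPC, while the row of all members stays between -0.04 and 0.06. The HSP110 and HSP90 rows are also negative in library 3, at -0.24 and -0.17 in HPC and -0.09 and -0.13 in LPC. The small HSP and HSP70 rows are positive there, at 0.36 and 0.02 in HPC and 0.22 and 0.40 in LPC.

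The heat shock letters were searched in the 300 bases around each start (250 before, 50 after) of 69 members found in the RefSeq table. The 3-unit element, GAANNTTCNNGAA or its complement TTCNNGAANNTTC, was found in Dnajb6, Hspd1, Hspe1 and Hsph1, 5.8% of those matched, against 0.662% of 27025 genes. Hspd1 and Hspe1 share a start region, so their matches may be the same run of letters. The Hsph1 match begins 36 bases after the start examined, and its window of 30 bases overlaps an annotated Hsph1 exon. The 2-unit letters, GAANNTTC or TTCNNGAA, each of which reads the same on both strands and lies within the longer element, were found in 20 members (29.0%), against 17.0% of genes. The 4 genes with a 3-unit element had log2 fold changes between -0.22 and 0.04, and none was called by edgeR or DESeq2 on all 6 libraries, with or without pairs.

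Genes of the same pathways outside the chosen symbols were read from the same fit. Of 60, 59 were tested: 20 HSP90 and HSP70 cochaperones, 13 prefoldin and CCT helper genes, 10 of mitochondrial quality control, the 6 ER chaperones that had been left out, and 10 other heat shock genes. None was called without pairs, and 1 was higher and 1 lower at an unadjusted p under 0.05. Serpinh1 (HSP47), the collagen chaperone of the ER and a heat-inducible gene, had 687, 676 and 571 CPM in HPC, against 929, 987 and 770 CPM in LPC. The groups did not overlap and HPC was lower by a factor of 1.39, with a log2 fold change of -0.47 (SE 0.14, edgeR adjusted p = 0.303). With pairs it fell in HPC, at a log2 fold change of -0.47 (SE 0.09, edgeR adjusted p = 0.046), and over all alternatives the adjusted p ran between 5.16e-06 and 1.00. In the paired fit the call was lost without pair 2 (adjusted p = 0.45) and without pair 3 (0.205). Of the 3 tested fibroblast genes, 2 had negative log2 fold changes and 1 a positive one. None was called without pairs, and 1 was called lower in HPC by edgeR with pairs (adjusted p = 0.0454). In the 2 genes with negative fold changes the groups did not overlap. Pdgfra had 4.32, 3.07 and 5.54 CPM in HPC and 6.27, 8.13 and 13.99 CPM in LPC (log2 fold change -1.14), the collagen gene Col1a1 had 2.64, 2.48 and 2.69 CPM in HPC and 3.85, 2.80 and 3.01 CPM in LPC (-0.30), and the collagen gene Col1a2 had 21.1, 13.98 and 10.9 CPM in HPC and 24.02, 6.55 and 5.02 CPM in LPC (0.37). Dcn and Lum were at or near 0. Their part in the Serpinh1 result was not tested.

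Zfand2a, an arsenite- and heat-inducible proteasome adaptor, had 39.0, 33.8 and 28.5 CPM in HPC and 28.4, 24.2 and 20.6 CPM in LPC. All HPC libraries were above all LPC libraries, with a log2 fold change of 0.47 (SE 0.17, edgeR adjusted p = 0.469). The cochaperones had a median log2 fold change of -0.03 and ran between Aarsd1 at -0.28 and Cdc37l1, a relative of the HSP90 kinase loader Cdc37, at 0.30. Prefoldin, tubulin cofactors and other CCT helpers had a median of -0.12, with Tbca, a tubulin cofactor, at -0.30 and Pdcl, a phosducin-like CCT partner, at 0.13. Mitochondrial quality control genes had a median of 0.01, with the proteases Htra2 at -0.22 and Lonp1 at 0.15. The ER chaperones had a median of -0.02, with Hsp90b1 at -0.16 and Dnajc10 at 0.21. No gene of these 4 lists was called with or without pairs.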

How the data were processed

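What was deposited by the authors is a table of raw read counts per gene for the 6 libraries (3 HPC, 3 LPC). The labels' protocols name QuantSeq 3' mRNA-Seq FWD on total RNA and a NextSeq 500, and the submitters' processing notes name STAR and GRCm38. For the counter, annotation, strand setting and molecular identifiers, the sources used here give nothing; if reads were copied by PCR they do not stand for separate molecules. Whether replicates were separate cultures is likewise unstated, and p-values then reflect just the spread of these libraries.

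Genes passing filterByExpr (11921) were tested with edgeR 4.0.16 (R 4.3.3; TMM scaling, quasi-likelihood F-test, group only, 4 residual degrees of freedom) and Benjamini-Hochberg adjustment over all of them, with a threshold of 0.05. CPM uses TMM-scaled library sizes. SE values come from the F statistic, and 95% intervals from the fit's degrees of freedom. Log2 differences within pairs use a pseudocount of 0.5 CPM. Deviations from group means correlated across genes at 0.42, 0.35 and 0.65 for libraries numbered 1, 2 and 3, above the minimum of 0.1 set for pairing, so results with pairs (2 residual degrees of freedom) stand beside those whose call they alter; no label states the pairing. Deviations of 3 libraries from their mean cancel, which makes this check weak. Alternatives were DESeq2 1.42.0, limma-voom (limma 3.58.1), other scalings and filters, and leaving out libraries or pairs. The tests were tried on simulated counts first. These counts held no replicate effect, so the trial cannot check the pairing.

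Of the members, 86 of 87 IDs were found in GENCODE M21; Hspa14 has a second ID that had no counts. Shared 3' ends (11 members) are matches of the last 300 bases to other transcripts on the same strand with BLAST 2.17.0. Genes are named that were called on all 6 libraries by edgeR (with or without pairs) or DESeq2, had an unadjusted p under 0.05, belong to a core list, had the 5 largest or smallest fold changes above 5 CPM, or were the most abundant of a class. Members, lists and classes were chosen with earlier results of these data known. Classes were set by symbol, and a class name may not describe each gene in it. Pfdn6 was not matched.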

Additional observations from a re-analysis of the deposited data

How the results depend on the processing

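With 3 libraries in each group the precision is set by the spread between libraries, and for rare genes (the members Dnaja4, Hspa1b and Hspb1, and Aarsd1 outside them) also by few reads. Without pairs, 5 of all tested genes and no member were called. Members called came to 2 with DESeq2 and 1 with the replicate block, by edgeR and by DESeq2 alike, and the other pathway genes to 1 in both blocked fits. All genes called came to 28 with no filter, 230 with DESeq2, 301 with the replicate block and 488 with the replicate block in DESeq2. Leaving out a library or a pair gave 0 to 2947 genes, 0 to 11 members and 0 to 10 other pathway genes, and the members' median ran between -0.041 and 0.011. The highest counts came from the blocked fit without pair 1, which has 1 residual degree of freedom; the cause was not tested. Without LPC replicate 3, 43 genes and no member were called.

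Of 48 named genes with a test, 25 kept their sign under every alternative run, among them Hspa4l, Dnaja4, Dnajc18, Bag4, Hsp90ab1, Hsp90aa1 and Serpinh1. The other 23 changed sign, none of them called without pairs. Their log2 fold changes with a library or pair left out ran over Hspa8 -0.38 to 0.086, Hspa1b -0.34 to 0.40, Hspa4 -0.085 to 0.12, Hsph1 -0.10 to 0.19, Hspa9 -0.34 to 0.13, Hspd1 -0.36 to 0.017, Hspb1 -0.21 to 0.57, Dnaja1 -0.10 to 0.11, Dnajb1 -0.14 to 0.033, Dnajb6 -0.12 to 0.15, Tcp1 -0.15 to 0.015, Cct6a -0.32 to 0.0011, Bag1 -0.077 to 0.074, Bag3 -0.10 to 0.12, Bag6 -0.046 to 0.067, Hsf1 -0.17 to 0.091, Hsf2 -0.10 to 0.083, Cct7 -0.17 to 0.039, Dnajb12 -0.060 to 0.054, Dnajc13 -0.023 to 0.17, Hspb2 -0.048 to 0.16, Aarsd1 -0.74 to 0.19 and Lonp1 -0.038 to 0.32. Signs also turned with DESeq2 (Dnaja1 0.00060, Hsf2 0.0063, Dnajb12 0.0029), DESeq2 with the block (Bag1 0.00024, Hsf2 0.0053, Dnajb12 0.0058), limma-voom (Hsf2 0.0059), RLE scaling (Hsf2 0.0034, Dnajb12 0.0014), upper-quartile scaling (Hspa4 -0.020, Bag3 -0.029, Bag6 -0.022), library size alone (Hspa4 -0.011, Bag3 -0.015, Bag6 -0.0095), no filter (Dnaja1 0.0075, Bag1 0.0069, Hsf2 0.012, Dnajb12 0.0095) and a filter at a mean count of 50 (Bag3 -0.00072).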
